A study of Chlamydomonas reinhardtii with 18 samples.

Results

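The genes described here have no symbol in the gene name column of the deposited table and were highest 5 min after Chlamydomonas cells had been moved into medium without iron. A gene was a member when its highest FPKM over the 8 columns from post-wash to 240 min was 5 or more, its highest value plus 1 was at least 4 times its lowest value plus 1, and its highest value was at 5 min. FPKM counts fragments relative to transcript length and to all mapped fragments. The rule found 93 of 17741 genes, out of 15993 genes without a symbol and out of 899 of these that met both the FPKM and the fold condition. Because measured values chose the members, their height at 5 min and their later low values are a description with no test. The pre-wash column was not used by the rule.

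Strain CC-4532 of the green alga Chlamydomonas reinhardtii was used, kept in constant light on TAP, a medium with acetate, and taken in mid-logarithmic growth. Cells were sampled before the wash (pre-wash), directly after centrifugation, 2 washes and transfer into fresh TAP, all without Fe-EDTA (post-wash), and 5, 10 and 15 min, then 30, 60, 120 and 240 min later. Each of the 9 sampling points has 2 cultures, 18 samples in all, and the strain is common to all of them. The labels give iron deprivation as the treatment of every sample, pre-wash included, and iron-replete cultures handled alike were not analysed here, so washing, fresh medium and lack of iron cannot be told apart.

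Both cultures of a sampling point share 1 deposited FPKM value for each gene, so no value has a replicate error and no difference could be tested. Differences are therefore counted by size, as 2-fold or more on the log2(FPKM + 1) scale, beside the same count over the 12580 genes that reached 1 FPKM in 2 or more columns (kept genes). All 93 members were among the kept genes. Column sums lay between 631357 FPKM (pre-wash) and 762490 FPKM (10 min), and the read depth is unknown. As a guide to how far neighbouring samplings differ, the log2 difference between the 15 and 10 min columns had a robust SD of 0.168 over all kept genes, that between 5 min and post-wash 0.310, and that between post-wash and pre-wash 0.435.

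Chlamydomonas swims with a pair of cilia, also called flagella, which are built on a ring of doublet microtubules around a central pair. Dynein motors, radial spokes and the central pair set the beat, and protein ribbons run inside the doublets. The cells shed and regrow their cilia, and the transcripts of many ciliary proteins are known to go up together when they do. The alga is also known for fermentation with hydrogen, formate and acetate as products when oxygen is short.

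Little is annotated for these genes. A defline or description was present for 22 of 93 members (23.7%), against 1425 of 6749 genes (21.1%) without a symbol whose highest FPKM was 5 or more. A symbol stood among the synonyms of 29 members, which here are called by it, and 63 members had neither text nor symbol. Cilia, flagella or the central pair were named in the text of 9 members (9.68%), against 105 of the 6749 genes (1.56%). Over 12 keyword lists, 8 members matched cilia and cytoskeleton (8.60%, against 1.84% of the 6749 genes). Transporters and channels matched 4 members (4.30%, against 1.54%), protein kinases and phosphatases 3 (3.23%, against 1.90%) and calcium and cyclic nucleotide signalling 3 (3.23%, against 0.696%). Of the kinases only CNK2 acts on proteins, as PYK4 and ADK5 are enzymes of glycolysis and nucleotide metabolism. The cilia list lacks the term central pair and so misses PF16. In the calcium list the matching words for ADK5 and GDP6 were adenylate kinase and glycerophosphoryl diester phosphodiesterase, so of these 3 only ACA2 was annotated with calcium. Cell wall and extracellular proteins matched 2 members (2.15%, against 0.756%), GAS28 and MMP4, and redox enzymes 1, NDA3 (1.08%, against 1.62%). RNA and ribosome matched 2 (2.15%, against 2.15%), but these are VPS39, a subunit of the VPS-C complex, and the carboxylase subunit MCC1, whose descriptions mention splicing of the gene model and a short rRNA motif on the opposite strand. The transcription factor match (1.08%, against 0.326%) is the potassium transporter KUP2, whose model ends in a stretch like Myb factors, and the lipid match (1.08%, against 0.356%) is GDP6. Chaperones, protein turnover and repeat proteins had 0 (against 0.667%, 0.948% and 0.222%), although HSP70H and UBC22 carry symbols of the first and second of these without any text. Most of these lists thus rest on 0 to 3 members.

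The median member was at 8.99 FPKM before the wash and 23.2 directly after it, at 30.2, 23.5 and 19.9 over the samplings of 5, 10 and 15 min, and then at 10.4 by 30 min, 5.25 by 60, 7.60 by 120 and 6.03 by 240 min. The median course was already high directly after the wash, and passed a low maximum at 5 min. Gene by gene, the median log2 difference to pre-wash was -0.49 at 60 min, 0.04 at 120 min and -0.16 at 240 min. At 120 min 50 of 93 members were above pre-wash, about the same share as the 6775 of 12580 kept genes. At 5 min the members ranged from 5.59 to 409 FPKM, with 14 at 100 or more and 12 below 10. In bulk RNA, fewer cells with a transcript and less of it per cell cannot be told apart.

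**Figure D1:**
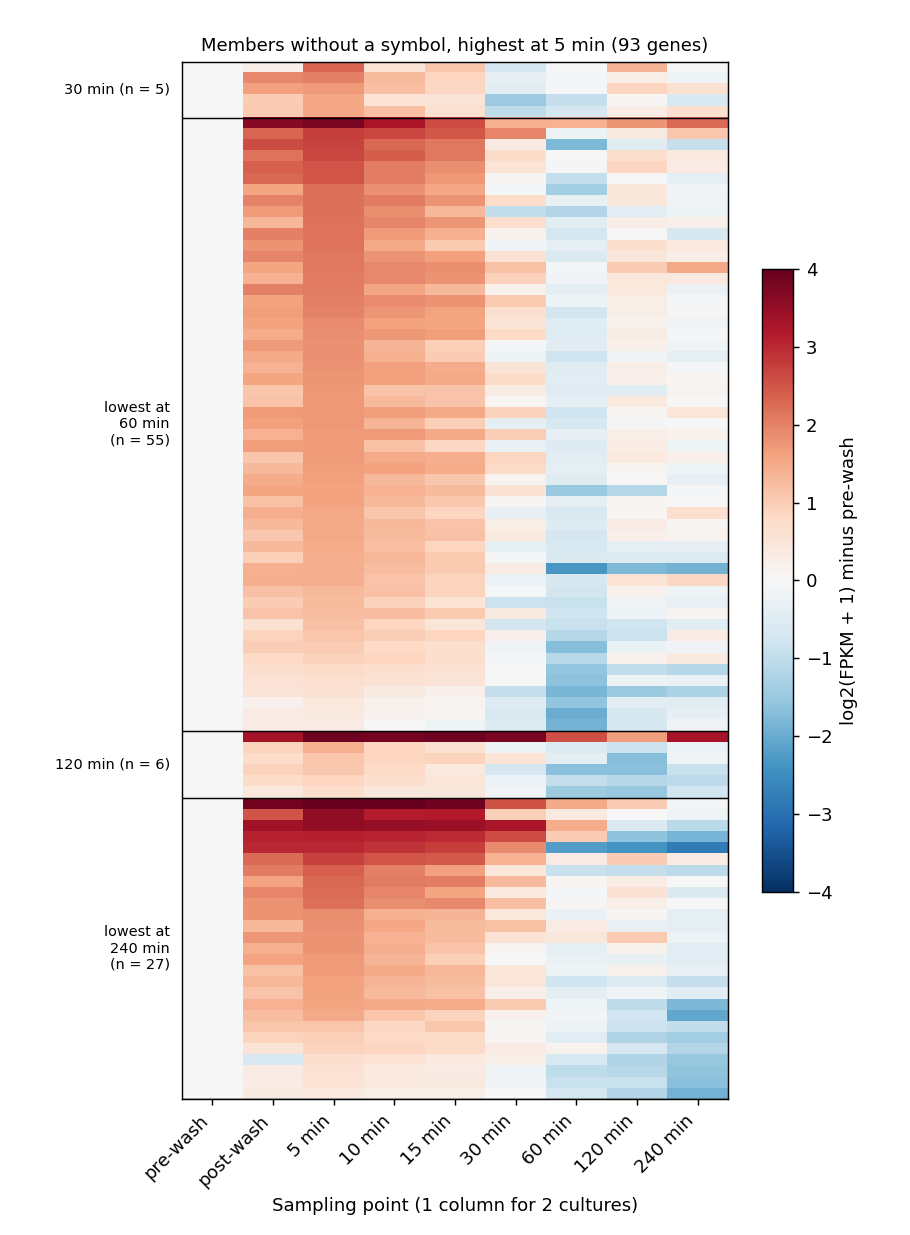
Heat map of the 93 members, 1 row per gene, over the 9 sampling points in time order; colour is log2(FPKM + 1) minus the pre-wash value, and rows are grouped by the sampling point with the lowest of the 8 values after the wash. Most rows are red from post-wash to 15 min and pale or blue from 60 min on; 55 are lowest at 60 min and 27 at 240 min.

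The course of the single genes is seen best in the 10 most abundant members. Cre07.g346900, without text or symbol, was the highest of all at 5 min. It was at 59.5 FPKM before the wash and 305 directly after it, at 409, 380 and 340 over the samplings of 5, 10 and 15 min, and then at 232 by 30 min, 51.4 by 60, 76.2 by 120 and 128 by 240 min. Its value at 240 min was 2.15 times the pre-wash value. Cre12.g542350, also without annotation, was at 32.7 FPKM before the wash and 281 directly after it, at 291, 275 and 264 over the samplings of 5, 10 and 15 min, and then at 205 by 30 min, 66.5 by 60, 10.0 by 120 and 8.37 by 240 min. From post-wash to 15 min it was nearly level, and its last values were far below pre-wash.

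BUG21 (Cre02.g113400), a symbol given to basal body and ciliary proteins, was at 55.1 FPKM before the wash and 170 directly after it, at 224, 206 and 194 over the samplings of 5, 10 and 15 min, and then at 116 by 30 min, 47.9 by 60, 64.4 by 120 and 53.5 by 240 min. PF16 (Cre09.g394251), an armadillo-repeat protein of the central pair that is needed for motility, was at 30.3, 86.7, 113, 104, 98.8, 53.1, 21.4, 37.2 and 29.6 FPKM at the same 9 sampling points. Both were back at about the pre-wash value at 240 min after a low point at 60 min. ACA2 (Cre12.g505350), a plasma membrane P-type cation ATPase that was found in the flagellar proteome per its deposited description, was at 34.8 FPKM before the wash and 99.6 after it, at 111 by 5 min, 38.0 by 30, 24.8 by 60 and 27.7 by 240 min.

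GAS28 (Cre11.g481600), a hydroxyproline-rich cell wall glycoprotein described as induced in gametes and zygotes and by osmotic stress and cell wall removal, was at 103 FPKM before the wash and 223 directly after it, at 223, 185 and 221 over the samplings of 5, 10 and 15 min, and then at 106 by 30 min, 89.4 by 60, 56.3 by 120 and 51.8 by 240 min. Its post-wash, 5 min and 15 min values were almost equal. Cre01.g029700 stayed high for longer than the other abundant members. It was at 12.3 FPKM before the wash and 132 directly after it, at 197, 189 and 196 over the samplings of 5, 10 and 15 min, and then at 182 by 30 min, 78.8 by 60, 41.2 by 120 and 131 by 240 min.

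Cre12.g541400 had the widest range, with a highest value plus 1 at 58.1 times the lowest plus 1. It was at 19.4 FPKM before the wash and 163 directly after it, at 165, 150 and 138 over the samplings of 5, 10 and 15 min, and then at 74.8 by 30 min, 3.39 by 60, 2.88 by 120 and 1.85 by 240 min. Cre17.g698532 (116 FPKM before the wash, 169 at 5 min and 35.9 at 240 min) and Cre09.g390726 (42.2, 122 and 9.34 FPKM) were lowest at 240 min as well.

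**Figure D2:**
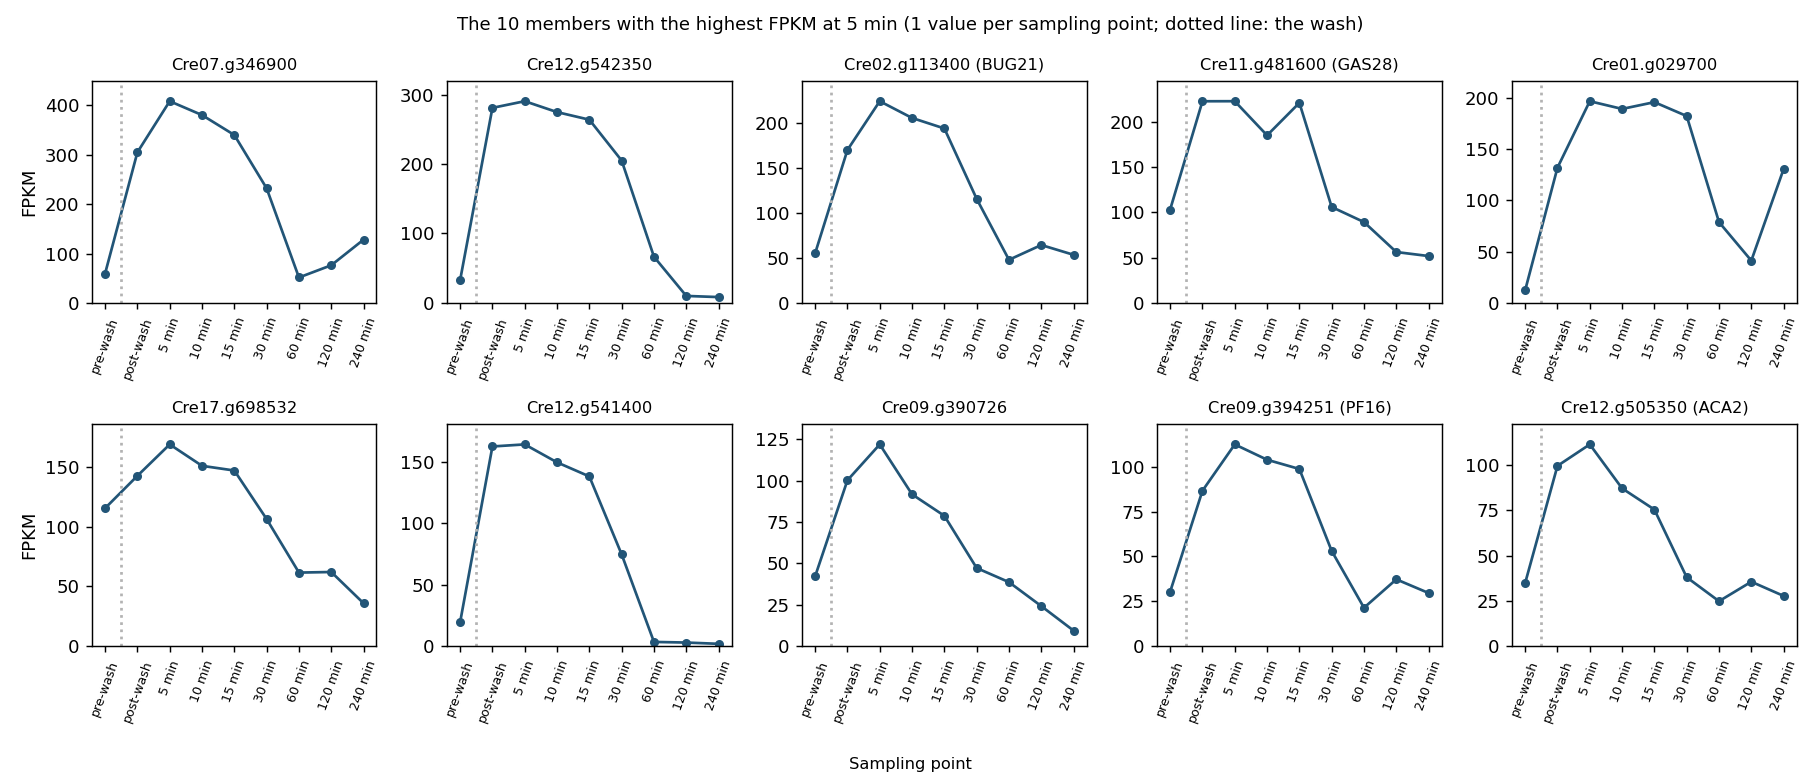
FPKM (linear axis from 0) of the 10 members with the highest value at 5 min at the 9 sampling points, which are evenly spaced and not to time scale; each point is the authors' value for 2 cultures. In Cre12.g542350, GAS28 and Cre12.g541400 the post-wash point is level with the 5 min point.

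The height at 5 min was small for most members. The 5 min value was a median of 1.12 times the next highest of the 8 columns, at least 1.1 times it in 53 members, at least 1.5 times in 3 and less than 5% above it in 24. The next highest column was post-wash in 44 members, 10 min in 42, 15 min in 6 and 120 min in 1. Against post-wash, only 3 members were 2-fold higher at 5 min, which is 3.23% beside 1.87% of kept genes, and the rule used both columns. The label of a peak at 5 min therefore describes a broad maximum from post-wash to 15 min in most of these genes, of which 92 of 93 were already above pre-wash directly after the wash.

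MMP4 (Cre01.g025200), a metalloproteinase of the VMP family described as an extracellular matrix glycoprotein, had the sharpest maximum. It was at 1.72 FPKM before the wash and 2.15 directly after it, at 12.5, 2.97 and 4.78 over the samplings of 5, 10 and 15 min, and then at 0.708 by 30 min, 1.74 by 60, 5.95 by 120 and 1.66 by 240 min. Its 5 min value stood alone, at 5.82 times post-wash, and its other values went up and down between 0.708 and 5.95 FPKM. The others 2-fold above post-wash were Cre01.g015650, with 29.6 FPKM at 5 min and 11.7 post-wash, and Cre09.g388353, with 12.6 and 5.67 FPKM. Cre01.g015650 was also the only member lower post-wash than pre-wash, where it was at 18.2 FPKM. Behind MMP4, the largest ratios to the next highest column were 1.54 in KUP2 (Cre17.g714200), a potassium uptake transporter, and 1.53 in Cre12.g507900.

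**Figure D3:**
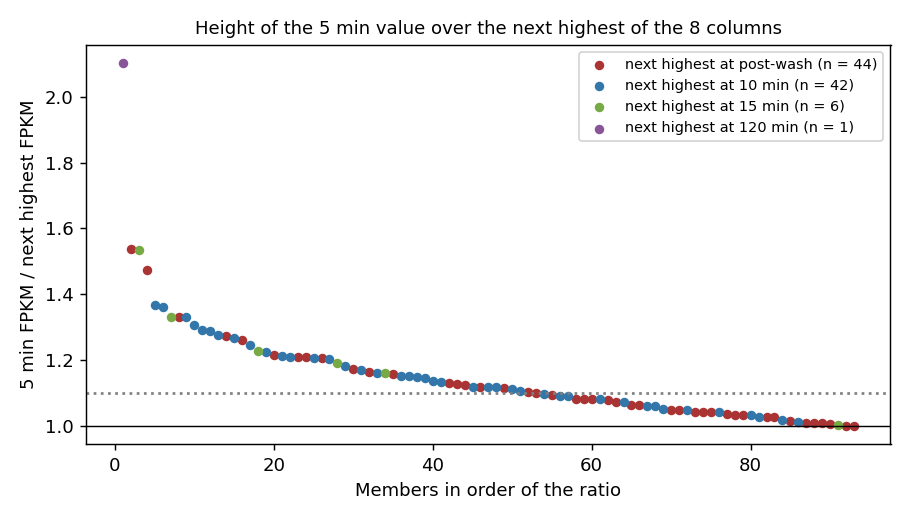
Ratio of the 5 min FPKM to the next highest FPKM of the 8 columns after the wash for the 93 members, in falling order, coloured by the sampling point of the next highest value; the dotted line marks 1.1. MMP4 leads at 2.10, and 40 members lie below the dotted line.

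Cases close to the limits of the rule show how fine the selection was. Just inside on the FPKM condition were CNG1 (Cre12.g553450), a cyclic-nucleotide gated potassium channel, at 5.59 FPKM, Cre02.g096000 at 6.06 and KUP2 at 6.66. Just outside were Cre06.g310950 at 4.96, Cre09.g388355 at 4.79 and Cre09.g401050 at 4.45 FPKM. On the fold condition, Cre19.g750647, AAA2 (Cre13.g581400) and Cre14.g630200 passed with 4.02, 4.02 and 4.03, and Cre26.g757047, Cre01.g002900 and Cre16.g674515 missed it, at 3.9999, 3.998 and 3.996. On the position of the maximum, GAS28, Cre02.g096000 and Cre01.g029700 were in by ratios of 1.0003, 1.0004 and 1.005 to the next highest column. Cre05.g232150, Cre14.g630835 and Cre10.g452350 were out because post-wash was higher, with 5 min at 0.998, 0.992 and 0.991 of it.

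The pre-wash column shows where these genes stood before the cells were handled. At 5 min 93 of 93 members were above their pre-wash value and 78 (83.9%) were 2-fold higher, beside 8.78% of kept genes, and 0 were 2-fold lower, beside 1.61%. The median log2 difference was 1.71 in members and 0.02 in kept genes. The 5 min side of this comparison is the value that chose the members. Post-wash, 92 of 93 were above pre-wash and 70 (75.3%) were 2-fold higher, beside 8.47% of kept genes, and 0 were 2-fold lower, beside 1.18%. Here the median was 1.40 in members and -0.0039 in kept genes. Post-wash was also one of the 8 columns of the rule, and the next highest column in 44 members, so this share is not free of the selection. Of the 355 genes without a symbol that met the FPKM and fold conditions and were highest post-wash, 250 (70.4%) were 2-fold higher post-wash than pre-wash. The lowest log2 differences at 5 min were 0.33 in Cre12.g541600 and 0.38 in Cre04.g223800.

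SELW2 (Cre12.g540351), a symbol of selenoprotein W, lay furthest above pre-wash at 5 min on this scale, by 4.51. It was at 0.670 FPKM before the wash and 23.2 directly after it, at 36.9, 27.0 and 23.8 over the samplings of 5, 10 and 15 min, and then at 8.76 by 30 min, 3.81 by 60, 2.37 by 120 and 0.603 by 240 min. Its last value was again as low as its first. Next came Cre01.g029700 (3.89), given above. Cre16.g685000 (3.81) was at 0.448 FPKM before the wash and 17.1 directly after it, at 19.3, 12.8 and 7.88 over the samplings of 5, 10 and 15 min, and then at 2.86 by 30 min, 2.79 by 60, 3.87 by 120 and 6.03 by 240 min. This gene did not come back to its pre-wash level in the 240 min.

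Cre09.g388353 (log2 difference 3.54) was at 0.170 FPKM before the wash and 5.67 after it, at 12.6 by 5 min, 1.29 by 30 and 0.0474 by 240 min. PNO1 (Cre06.g271200; 3.53) was at 2.59 FPKM before the wash and 35.7 directly after it, at 40.6, 39.3 and 38.6 over the samplings of 5, 10 and 15 min, and then at 33.7 by 30 min, 9.02 by 60, 1.41 by 120 and 0.705 by 240 min. PNO1 held most of its 5 min level at 30 min, when 64 members were already 2-fold lower. The rest of the 10 furthest above pre-wash were Cre12.g542350 (3.11), Cre12.g541400 (3.02), Cre07.g346900 (2.76), TRX21 (Cre01.g037800; 2.72) and Cre11.g467593 (2.71). TRX21, a symbol of thioredoxins, was at 15.6 FPKM before the wash, 109 at 5 min and 19.5 at 240 min. Cre11.g467593 was at 11.1, 78.1 and 5.36 FPKM, with 2.47 at 60 min. In all, 6 members were below 1 FPKM before the wash, and on the log2(FPKM + 1) scale their differences are understated.

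**Figure D4:**
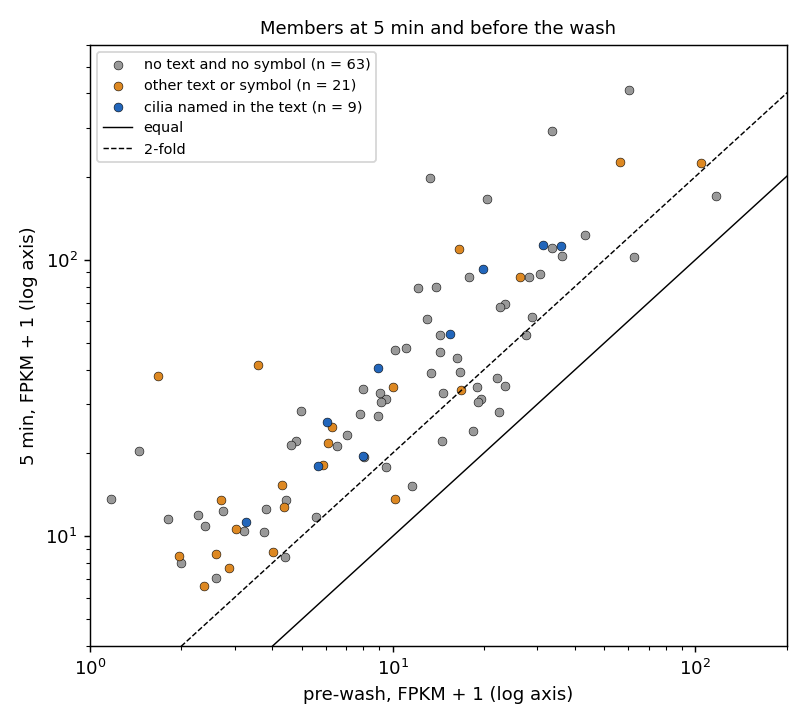
FPKM + 1 at 5 min (vertical) against pre-wash (horizontal) for the 93 members, both axes logarithmic; the solid line marks equal values and the dashed line a 2-fold difference. All points lie above the solid line and 78 on or above the dashed one, and the 9 members with cilia in their text (blue) all lie above the dashed line.

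The 9 members annotated with cilia shared their lowest sampling point but fell to different degrees. From 5 to 30 min the log2 difference lay between -0.91 in ADK5 and -2.04 in CNK2. At 5 min the 9 members were higher than pre-wash by a median of 1.80 on the log2 scale, with a range of 1.29 to 2.21. Their median level was 7.94 FPKM before the wash and 34.9 after it, 39.5 by 5 min, 10.4 by 30, 4.49 by 60, 8.08 by 120 and 7.02 by 240 min. The lowest value after the wash was at 60 min in 9 of 9, which by itself places their 120 min values above those at 60 min. The rule used both columns, so this is a description only. For comparison, the 63 members without text or symbol ranged from 0.33 to 3.89 at 5 min (median 1.69), and 34 of them were lowest at 60 min and 21 at 240 min. A range tends to widen with the number of genes, so the 2 ranges are not alike in kind.

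RIB43A (Cre03.g178500), a coiled-coil protein of the protofilament ribbons of doublet microtubules, was at 18.9 FPKM before the wash and 77 directly after it, at 91.2, 83.1 and 67.5 over the samplings of 5, 10 and 15 min, and then at 32.4 by 30 min, 15.3 by 60, 25.4 by 120 and 17.1 by 240 min. CNK2 (Cre12.g560350), a NIMA-related kinase known to act on cilium length, was at 7.94, 34.9, 39.5, 28.2, 23.1, 8.83, 4.49, 8.08 and 4.79 FPKM at the 9 sampling points. CNK2 was down to about its pre-wash level at 30 min, when RIB43A was still above its own. FBB9 (Cre11.g482200) and FBB5 (Cre12.g556300), conserved proteins of the flagellar and basal body proteome that the deposited descriptions call upregulated by deflagellation, were at 52.8 and 24.8 FPKM at 5 min and at 14.5 and 5.05 before the wash. ADK5 (Cre08.g377350), an adenylate kinase of the flagellar proteome, was at 17.0 FPKM at 5 min and 4.67 before the wash. FAP5 (Cre16.g687966), called a possible kinesin, was at 10.2 and 2.27 FPKM, and MOT43 (Cre16.g688650), found only in organisms with motile cilia, at 18.5 and 6.98 FPKM.

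Among the other annotated members, the alternative mitochondrial NADH dehydrogenase NDA3 (Cre05.g232200) was at 25.3 FPKM before the wash and 85.4 directly after it, at 85.9, 82.3 and 73.6 over the samplings of 5, 10 and 15 min, and then at 49.1 by 30 min, 14.2 by 60, 26.3 by 120 and 36.0 by 240 min. PYK4 (Cre03.g144847), a pyruvate kinase, was at 7.75 FPKM at 5 min and 3.02 before the wash. It was at 0.820 at 60 min and 3.99 at 240 min, and its description calls the gene model one of several variants of its region. AAA2, a plastid ADP/ATP translocase, differed by less than 2-fold between 5 min and pre-wash, with 12.6 FPKM at 5 min and 9.13 before the wash. KUP2 was at 6.66 and 1.88 FPKM, and its model may join it to a separate gene per its description. GDP6 (Cre03.g203600), a probable phospholipase C, was at 7.61 and 1.61 FPKM, with 1.04 at 30 min.

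At 60 min 14 of 93 members were above their pre-wash value, beside 6482 of 12580 kept genes, and 79 were below it. From 5 to 60 min 80 of 93 members were lower at each successive sampling. At 30 min 64 (68.8%) were 2-fold lower than at 5 min, beside 8.11% of kept genes, and at 60 min 92 (98.9%), beside 12.9%. The exception at 60 min was Cre03.g205450. The rule used these columns, so these counts describe the selection. At 10 min 2 members and at 15 min 5 were 2-fold lower than at 5 min, beside 0.191% and 0.954% of kept genes.

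After 60 min the members divided by where their lowest value lay, which was the 60 min column in 55, 240 min in 27, 120 min in 6 and 30 min in 5. In those lowest at 60 min the median log2 difference to pre-wash was -0.60 by 60 min, 0.14 by 120 and -0.05 by 240 min. In those lowest at 240 min it was -0.21, -0.54 and -0.92. From 60 to 120 min 12 members were 2-fold higher (12.9%, beside 1.87% of kept genes) and 3 lower (3.23%, beside 1.37%), and from 60 to 240 min 15 higher (16.1%, beside 5.17%) and 7 lower (7.53%, beside 5.71%). The rule used these columns too, and 60 min was the lowest in 55 members, so these shares are partly set by the selection. The groups by lowest column were formed from the values themselves, so the contrast between them is not a result. Up to 15 min the medians of the groups lowest at 60 and at 240 min were close, at 1.72 and 1.79 at 5 min. By 30 min they were 0.18 and 0.44. FXL1 (Cre13.g586650), a PAS domain protein lowest at 30 min, was at 11.7 FPKM by 5 min, 1.16 by 30 and 5.77 by 240 min.

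**Figure D5:**
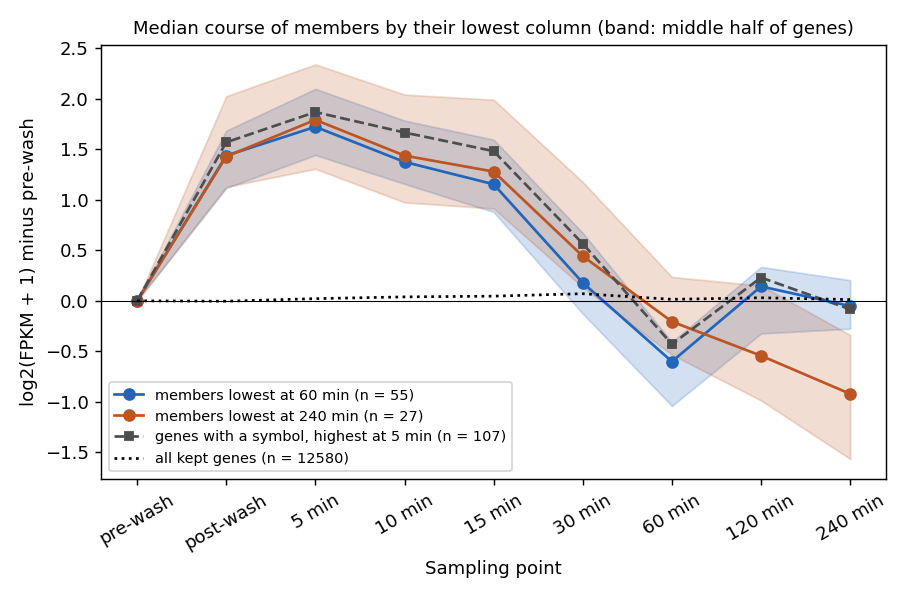
Median log2(FPKM + 1) minus pre-wash at the 9 sampling points for members lowest at 60 min (n = 55) and lowest at 240 min (n = 27), with bands for the middle 50% of genes, for the 107 genes with a symbol that met the same conditions, and for all 12580 kept genes. The 2 groups of members run together until 15 min and are at -0.05 and -0.92 at 240 min.

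Relative to pre-wash, 14 members were 2-fold higher at 30 min (15.1%, beside 5.53% of kept genes) and 2 lower (2.15%, beside 3.74%). The balance turned after that, as 18 members were 2-fold lower at 60 min (19.4%, beside 3.66% of kept genes) and 5 were 2-fold higher (5.38%, beside 4.05%). At 120 min 14 were lower (15.1%, beside 1.72%) and 7 higher (7.53%, beside 2.33%), and at 240 min 16 were lower (17.2%, beside 4.94%) and 4 higher (4.30%, beside 4.38%). The rule favours low late values, so the lower counts are partly set by it, while the share higher at 240 min was close to that of kept genes. The 4 higher at 240 min were Cre01.g029700, Cre16.g685000, MCC1 and Cre07.g346900, by 3.31, 2.28, 1.51 and 1.09 on the log2 scale. Furthest below pre-wash at 240 min were Cre12.g541400 (-2.84) and Cre09.g390726 (-2.06).

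On the log2(FPKM + 1) scale, the 5 members furthest above their 60 min value at 240 min were Cre12.g541600, Cre04.g223800, UBC22 (Cre12.g515450), a symbol of ubiquitin-conjugating enzymes, MCC1 (Cre06.g278098), the alpha subunit of methylcrotonoyl-CoA carboxylase, which takes part in leucine breakdown, and Cre16.g685500. The order depends on the scale, since by plain FPKM ratio Cre02.g096000 (5.28), MCC1 (5.12) and PYK4 (4.86) came first and Cre12.g541600 stood at 3.78. MCC1 was at 0.972 FPKM before the wash and 4.86 directly after it, at 7.49, 6.50 and 6.10 over the samplings of 5, 10 and 15 min, and then at 3.41 by 30 min, 0.900 by 60, 2.96 by 120 and 4.61 by 240 min. UBC22 was at 15.8 FPKM before the wash, 32.8 by 5 min, 4.18 by 60 and 14.3 by 240 min. Except for MCC1, the 5 genes ranked on the log2 scale ended within 2-fold of their pre-wash value. By plain FPKM ratio Cre02.g096000 ended at 2.24 times its pre-wash value. Cre12.g541600 and Cre04.g223800 had been only 1.27 and 1.32 times as high at 5 min as before the wash, so their place among the members came from their low 60 min values of 5.10 and 3.70 FPKM.

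In the RefSeq gene order (assembly Chlamydomonas_reinhardtii_v5.5), which held all 93 members, 3 pairs of members were direct neighbours. No like count for other sets of genes is given here. Cre09.g394213, without annotation, lies beside PF16. It was at 35.3 FPKM before the wash and 75.6 directly after it, at 102, 86.1 and 81.2 over the samplings of 5, 10 and 15 min, and then at 46.7 by 30 min, 21.8 by 60, 40.8 by 120 and 38.8 by 240 min. Like PF16 it was lowest after the wash at 60 min, as were 55 of the 93 members. Cre12.g541450, the neighbour of Cre12.g541400, was at 1.27 FPKM before the wash, 11 at 5 min and 0.112 at 240 min. Cre01.g004124 and Cre01.g004157 were at 21.0 and 32.0 FPKM at 5 min, 13.5 and 13.6 before the wash, and 3.11 and 6.93 at 60 min. HSP70H (Cre14.g613600), a symbol of the HSP70 family, lies beside FAP203, a flagellar associated protein with a symbol that also met the course conditions, and was at 23.9 FPKM at 5 min and 5.29 before the wash. The sources used here do not say whether counting used strand, so reads of overlapping neighbours could not be told apart.

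The same course conditions were met by 107 genes with a symbol, of 245 such genes with the FPKM and fold conditions, and 89 of the 107 (83.2%) named cilia, flagella or the central pair in their text, against 9.68% of the members. The share naming cilia over all 1748 genes with a symbol is not given here, so 83.2% has no like background beside it. Of the 107 symbols, 74 start with FAP. The symbol came with text in 100 of the 107 genes, and only 22 members had any. Their median log2 differences to pre-wash were 1.87 by 5 min, -0.43 by 60, 0.23 by 120 and -0.08 by 240 min, and 91 of 107 were lowest at 60 min and 14 at 240 min. In the members the same medians were 1.71, -0.49, 0.04 and -0.16. The most abundant of the 107 were CGLD37 (1872 FPKM at 5 min and 1379 before the wash), the pyruvate-formate lyase PFL1 (1174 and 181), FAP12 (743 and 138), FAP90 (426 and 79.3) and the iron hydrogenase HYDA1 (392 and 58.5). Cilia were named in the text of 2 of 355 genes without a symbol that were highest post-wash (0.563%), 1 of 191 highest at 30 min (0.524%) and 3 of 128 highest at 240 min (2.34%), where 13.2%, 15.7% and 18% had text at all. No test of these differences was made.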

How the data were processed

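The measurement was Illumina RNA sequencing of polyA RNA, per the labels' protocols. The authors deposited FPKM values, 1 column per sampling point for 2 cultures together, using v5.6 gene identifiers (per the file headers). The submitters' processing notes name the aligner STAR (2.4.1) and Cuffdiff (2.0.2); the scaling between libraries and the use of strand are not given in the sources used here. A further 9 columns, of no sample listed here, were left out. With the cultures combined, no test, adjusted p-value, leave-one-out fit or replicate block was possible.

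Differences were taken on log2(FPKM + 1), which understates changes of weak genes; ratios are plain FPKM ratios. Python 3.11.15 with pandas 2.3.3 was used. The selection and counting steps were run on simulated data with planted courses and far less noise than the real columns. That checks the code only, and not whether the position of a maximum is recovered in data like these. Keywords were matched at word starts in deflines and descriptions, and symbols were read from the synonyms. The members and lists were chosen with earlier results of these data known.

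Named genes are the 10 members highest at 5 min, the 10 furthest above pre-wash at 5 min, the 5 with the widest range, up to 3 of each keyword list with 3 or more members, the 3 on either side of each condition, neighbouring members, the 5 furthest above their 60 min value at 240 min on the log2 scale, and the 5 most abundant genes with a symbol and the same course. Other genes named were chosen after their values were seen. RefSeq matched 17738 identifiers. Promoter motifs were not searched. Alternatives were a pseudocount of 0.1, quantile normalization, median-of-ratios scaling, other minimum values and folds, and, added after seeing the data, a 5 min value at least 1.1 times all others.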

Additional observations from a re-analysis of the deposited data

How the results depend on the processing

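The number of members depended on the conditions. It was 163 with a pseudocount of 0.1, 54 under quantile normalization (53 of them shared with the 93), 15 with a fold of 8 or more, and 53 when the 5 min value had to be at least 1.1 times every other column, a condition chosen after seeing the data. It stayed between 81 and 97 under median-of-ratios scaling, without a minimum FPKM, and with a minimum of 10. Quantile normalization moved the median log2 difference of all kept genes to pre-wash to -0.11 at 5 min and -0.12 post-wash. With the members held, or reduced to those that met the stricter condition, the share 2-fold higher than pre-wash lay between 77.4% and 100% at 5 min. The same share over the background genes of each setting was 6.23% to 12.0%. Post-wash the members lay between 64.5% and 100%, beside 6.08% to 11.3%. Both values of 100% belong to the 15 members with a fold of 8 or more, a condition on these same columns. Among the 15 members with a fold of 8 or more, 1 (6.67%) was 2-fold higher at 5 min than post-wash, beside 1.87% of kept genes. At 240 min 0 of the 15 were 2-fold higher than pre-wash (beside 4.38%) and 7 (46.7%) were 2-fold lower (beside 4.94%). Among the 53 members with the clearer maximum, 4 (7.55%) were 2-fold lower at 240 min than pre-wash, beside 4.94% of kept genes. This compares with 17.2% of the 93. These shares rest on fewer members by construction. Both conditions also use columns that the shares compare, and a larger fold favours low late values. The shares are therefore partly set by the conditions.

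No paired analysis was possible because the deposited table has 1 column for both cultures of a sampling point. Leaving out a culture was not possible for the same reason. Without counts, depth sets a limit that cannot be stated, and values below 1 FPKM are the least certain.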
